A study of Mus musculus with 12 samples.

Results

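Interferon-inducible GTPases are proteins of cell-autonomous immunity that interferons, above all interferon-gamma, switch on in most cell types. The data here were described for 10 of their genes, Irgm1, Irgm2, Igtp, Iigp1, Gbp2, Gbp3, Gbp7, Tgtp1, Tgtp2 and Ifi47, out of 27998 genes in the deposited tables of mouse bone marrow progenitors. The genes were chosen by name, with earlier results of these data known, and all 10 were found.

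In textbook terms the proteins fall into families that bind and hydrolyse GTP. The immunity-related GTPases (IRG proteins) include effectors that coat the vacuole around an intracellular parasite or bacterium (Iigp1, Tgtp1, Tgtp2 and Ifi47) and regulators that sit on the cell's own membranes and hold the effectors inactive there (Irgm1, Irgm2 and Igtp). The guanylate-binding proteins (Gbp2, Gbp3 and Gbp7) are larger relatives that assemble on the same vacuoles and on bacteria. Their genes are classical targets of interferon signalling and of the transcription factor IRF1, and Irgm1 is also known for its part in keeping haematopoietic stem cells quiescent under interferon.

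The study followed leukaemia development in C57BL/6 mice by droplet single-cell RNA sequencing of magnetically enriched c-Kit+ marrow cells, with 1 library per genotype and time point and 12 libraries in all. WT mice were Mx1-Cre negative, E2-KO mice were Mx1-Cre+ with both Ezh2 alleles floxed (Ezh2 encodes the histone H3 lysine 27 methyltransferase), G12D mice were Mx1-Cre+ with 1 NRas G12D allele, and G12D/E2-KO mice carried both changes with Mx1-Cre. Animals of every genotype, WT included, received 5 injections of pIpC, at 8 to 12 weeks of age by the sample records (the study's text gives a younger age), and were sampled 2 weeks (T1), 2 months (T2) or 4 months (T3) later. Cell names inside every table number the time points 1 lower than the sample records do. The records' numbers are used here, and the shift leaves the order of the time points as it is. pIpC is a synthetic double-stranded RNA that induces interferon, and Mx1 is itself an interferon-inducible promoter, so no group lacked exposure to it, and Mx1-Cre separated WT from the other genotypes in addition to the Ezh2 and NRas alleles. How many animals went into a library was not given in the sources used here. Because a genotype had 1 library at each time point, the 3 time points served as its replicates, and p-values measured spread between them, which may be partly technical. The study takes T1, T2 and T3 as disease initiation, evolving myeloproliferative neoplasm and leukaemia, and describes leukaemia in G12D/E2-KO mice only. The spread therefore also holds any change with stage that differs between genotypes.

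The libraries held 12636998 to 23646292 unique molecular identifiers (UMIs, 1 per captured transcript molecule), with a median of 3780.5 to 6975.5 per cell. Of 35597 deposited cells, 2896 in the G12D T1 table matched cells of the G12D/E2-KO T1 table and were counted in the latter only, which left 32701. Cell names carried no barcodes, so shared cells were found from their counts, and the other 65 pairs of libraries had no match. Ezh2, the deleted gene, stood at 103 to 133 CPM (counts-per-million, the UMIs of a gene scaled to the total of the library) in WT, 27.7 to 34.6 in E2-KO, 81.7 to 103 in G12D and 20.7 to 25.3 in G12D/E2-KO. Nras, whose allele changes sequence and not dose, was at 52.5 to 80.3 CPM in all 12 libraries, and Kit, the marker of the enrichment, at 43.6 to 80.8 CPM. Xist, transcribed in female cells, was at 1296 to 1357 CPM in the WT, E2-KO and G12D libraries of T3 and at 0.608 CPM or less in the other 9, G12D/E2-KO T3 included. In WT, E2-KO and G12D, a difference of T3 from T1 or T2 therefore cannot be told apart from sex. The same holds at T3 for G12D/E2-KO against the other genotypes. Of 19 type I interferon response genes, 13 were highest in G12D T3 and 5 in G12D/E2-KO T1, and 15 were lowest in G12D/E2-KO T3. Isg15, a ubiquitin-like protein induced by type I interferon, was at 125 CPM in G12D T3, 160 in G12D/E2-KO T1, 2.20 in G12D/E2-KO T3 and 28.3 to 92.7 CPM in the other 9. Results are also given below without G12D T3 and G12D/E2-KO T3, a setting chosen after the data were seen. These 2 libraries were picked for the level of genes of the same programme, and G12D/E2-KO T1, with levels near those of G12D T3, was kept. Leaving out G12D/E2-KO T3 also leaves out the stage that the study describes as leukaemia. Calls gained in that setting are therefore a description and no support for a difference.

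Of the genes, 6 lie on chromosome 11, in 2 stretches (GRCm38, Gencode vM21). Irgm1 (48861968 to 48871683, minus strand), Tgtp1 (48985327 to 48994172, minus), Tgtp2 (49057194 to 49064206, minus) and Ifi47 (49076587 to 49096974, plus) form one, and Igtp (58199556 to 58207591, plus) and Irgm2 (58199618 to 58222782, plus) the other. The gene models of Igtp and Irgm2 overlap by 7974 bases on the same strand, and Tgtp1 and Tgtp2 are near-identical paralogs, so counts within each pair could have been shared or lost in read assignment and are uncertain. Gbp7 (142530342 to 142550149), Gbp3 (142560026 to 142573209) and Gbp2 (142620602 to 142638008) follow each other on the plus strand of chromosome 3, and Iigp1 (60376027 to 60392634, plus) is the only one on chromosome 18.

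Promoter sequence was available in the RefSeq table (GRCm38.p6, 250 bases before to 50 after each start) for 9 of the 10 genes, as 10 promoters. Since most of these genes were highest in the same library (below), their promoters were searched on both strands for the core of the interferon-stimulated response element, GAAANNGAA (TTCNNTTTC on the other strand), which interferon regulatory factors such as IRF1 are known to bind, and for the gamma-activated site TTCNNNGAA, an element of interferon-gamma responsive promoters that reads the same on either strand. The first was present for 8 of the 9 genes, against 8.56% of all 32851 promoters in the table, and the second for 5, against 8.30%. A gene was counted for a match in any of its promoters, while the percentages are per promoter. Gbp3 had 2 promoters, 1 of them without either motif. Both stood in the promoters of Irgm2, Igtp, Gbp7, Tgtp1 and Tgtp2, against 1.07% of all promoters, and Ifi47 had neither in this window. No match of one motif overlapped a match of the other. A match describes the sequence and does not show that a factor binds. The genes were chosen as interferon-inducible, so matches were likely beforehand and say nothing about any library. Igtp and Irgm2 have similar stretches, as do Tgtp1 and Tgtp2 (below), so the promoters with both motifs are not independent.

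The stretches around the matches are printed 5′ to 3′ on the strand of the gene, with the matched letters in capitals, to show how alike the elements are between the genes that have both. Igtp (chr11:58199491-58199550, plus strand), Irgm2 (chr11:58214882-58214941, plus), Tgtp1 (chr11:48992295-48992354, minus) and Tgtp2 (chr11:49064254-49064313, minus) share the same order, a gamma-activated site followed after 2 bases by the response element core.
Igtp: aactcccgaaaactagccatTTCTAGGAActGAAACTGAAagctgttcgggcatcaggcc
Irgm2: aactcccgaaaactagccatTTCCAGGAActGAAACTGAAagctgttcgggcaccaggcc
Tgtp1: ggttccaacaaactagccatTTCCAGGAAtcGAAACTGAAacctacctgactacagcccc
Tgtp2: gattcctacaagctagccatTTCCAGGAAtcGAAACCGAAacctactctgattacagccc

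Of these 60 bases, Igtp and Irgm2 had 58 equal, Tgtp1 and Tgtp2 46, and Igtp and Tgtp1 38, while over their whole promoters, aligned without gaps, which lowers the count past any insertion or deletion, Igtp and Irgm2 had 184 of 270 bases equal and Tgtp1 and Tgtp2 114 of 293. In Gbp7 (chr3:142530210-142530312, plus strand) a pair of gamma-activated sites lay upstream of the core on the opposite strand, and Gbp2 (chr3:142620585-142620633, plus), Gbp3 (chr3:142559980-142560034, plus) and Irgm1 (chr11:48871421-48871470, minus) had the core alone, in 2 overlapping copies in Gbp3 and Irgm1.
Gbp7: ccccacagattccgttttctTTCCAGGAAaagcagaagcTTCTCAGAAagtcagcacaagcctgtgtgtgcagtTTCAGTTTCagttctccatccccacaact
Gbp2: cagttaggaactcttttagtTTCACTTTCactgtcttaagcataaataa
Gbp3: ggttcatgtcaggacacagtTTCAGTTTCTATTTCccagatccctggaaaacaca
Irgm1: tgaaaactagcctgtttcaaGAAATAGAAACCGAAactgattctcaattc

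Across whole libraries, the GTPase genes were transcribed at low levels in every genotype, and 9 of the 10 were highest in 1 library, G12D T3. Summed over the 10 genes, 20173 UMIs were counted. The sum was 85.7, 75.3 and 71.1 CPM in WT at T1, T2 and T3, 84.5, 75.5 and 82.9 in E2-KO, 78.4, 73.2 and 173 in G12D, and 101, 104 and 87.7 CPM in G12D/E2-KO. G12D T3 was thus 1.66 times the next library, while the other 11 lay between 71.1 and 104 CPM. Of the 12603 genes with at least 100 UMIs, 4.32% were highest in G12D T3, and their median ratio of G12D T3 to the mean of the other 11 libraries was 0.946. These sums are over all cells, in which fewer cells of a type and less RNA per cell cannot be told apart. Counts are 3′ tags not scaled by gene length, so levels below are compared between libraries and cell classes and not between genes.

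**Figure D1:**
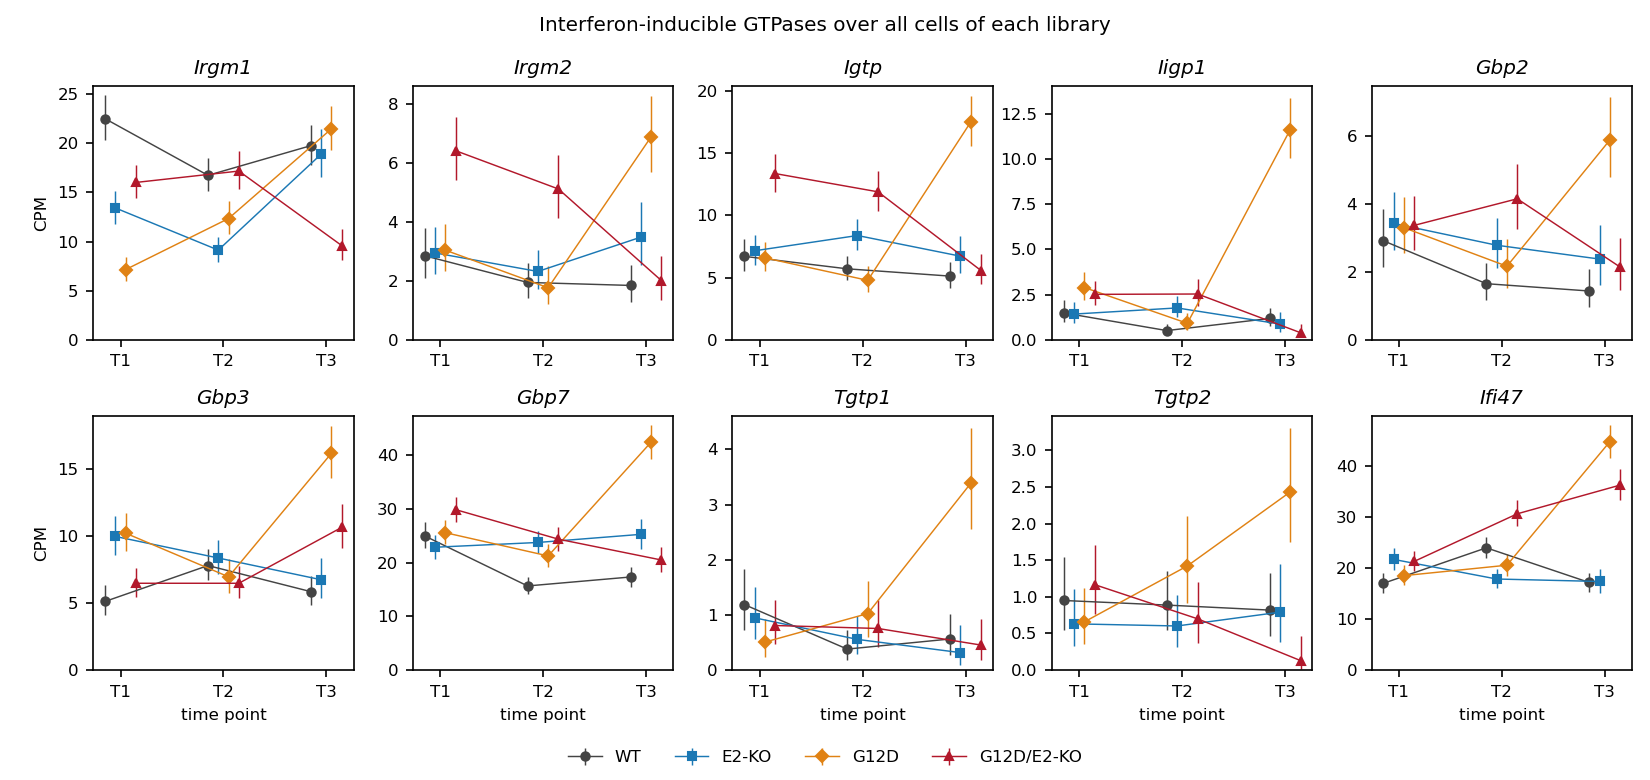
CPM of each gene over all cells of a library, by time point after pIpC (x axis) and genotype (colour and symbol), with exact Poisson 95% intervals that cover counting error only. In 9 of the 10 panels the highest point is G12D T3, and Irgm1 is the exception, with WT T1 at 22.5 CPM and G12D T3 at 21.5 CPM.

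Among the regulators, Irgm1 had its highest mean in WT. It was at 22.5, 16.7 and 19.8 CPM in WT at T1, T2 and T3, at 13.4, 9.13 and 18.9 in E2-KO, at 7.15, 12.4 and 21.5 in G12D, and at 16.0, 17.2 and 9.59 in G12D/E2-KO. E2-KO was below WT at every time point, but the ranges of all 3 mutant genotypes reached into that of WT. Irgm2 was at 2.85, 1.95 and 1.84 CPM in WT, 2.95, 2.32 and 3.48 in E2-KO, 3.04, 1.76 and 6.89 in G12D, and 6.42, 5.12 and 2.01 in G12D/E2-KO. Igtp, its neighbour, had the same order of libraries at the top: 6.71, 5.71 and 5.12 CPM in WT, 7.16, 8.39 and 6.73 in E2-KO, 6.59, 4.78 and 17.5 in G12D, and 13.4, 11.9 and 5.57 in G12D/E2-KO. For Irgm2 and Igtp the 3 highest libraries were therefore G12D T3 and the T1 and T2 libraries of G12D/E2-KO, and G12D/E2-KO T3 was within the range of the other genotypes.

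Among the effectors, Iigp1 was the most uneven. It was at 1.49, 0.507 and 1.18 CPM in WT, 1.42, 1.76 and 0.870 in E2-KO, 2.89, 0.911 and 11.6 in G12D, and 2.51, 2.53 and 0.389 in G12D/E2-KO, so that G12D T3 stood 4.03 times above the next library. Of its 514 UMIs, 196 were counted in G12D T3, where they were spread over 120 of 2551 cells with at most 11 in a cell; in the other 11 libraries 5 to 45 cells had any. Ifi47 was at 17.1, 24.0 and 17.2 CPM in WT, 21.7, 17.9 and 17.4 in E2-KO, 18.6, 20.6 and 44.9 in G12D, and 21.4, 30.7 and 36.3 in G12D/E2-KO, which made it the only one of the 10 genes whose G12D/E2-KO T3 value was above 2 times the T3 value of WT. Tgtp1 (198 UMIs in all) ranged from 0.317 to 1.19 CPM outside G12D T3 and was at 3.38 CPM in it, and Tgtp2 (208 UMIs) ranged from 0.130 to 1.42 CPM outside it and was at 2.43 CPM in it.

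The guanylate-binding protein genes were also highest in G12D T3. Gbp7 was at 25.0, 15.6 and 17.3 CPM in WT, 22.8, 23.7 and 25.2 in E2-KO, 25.6, 21.2 and 42.4 in G12D, and 29.8, 24.3 and 20.5 in G12D/E2-KO. Gbp3 was at 5.11, 7.78 and 5.84 CPM in WT, 9.95, 8.34 and 6.73 in E2-KO, 10.2, 6.94 and 16.1 in G12D, and 6.46, 6.46 and 10.6 in G12D/E2-KO. Gbp2 ranged from 1.43 to 4.15 CPM outside G12D T3 and was at 5.88 CPM in it. G12D T3 was 1.86, 2.10 and 2.18 times the mean of the other 11 libraries for Gbp7, Gbp3 and Gbp2, against 7.78 times for Iigp1, 4.96 times for Tgtp1, 2.03 times for Ifi47 and 1.45 times for Irgm1. These ratios describe 1 library and carry no test.

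The genotype comparisons asked whether oncogenic Nras, loss of Ezh2 or both changed the genes. No GTPase gene passed the test (edgeR's quasi-likelihood test with time point as a factor, adjusted over 13143 genes, threshold 0.05) in any genotype or time contrast over all cells. In E2-KO against WT, 0 of the 10 were called, against 1.65% of all genes (217). None had an unadjusted p under 0.05 (2125 of all genes did), DESeq2 also called 0 (and 430 genes), and the median log2 change of the 10 was 0.33 against 0.00 over all genes. Gbp2 had 0.53 ± 0.41 (log2 change ± SE, edgeR adjusted p = 0.546, higher at 3 of 3 time points) and Irgm1 -0.56 ± 0.42 (edgeR adjusted p = 0.537, lower at 3 of 3).

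In G12D against WT, 9 of the 10 fitted changes were above 0, yet 0 were called, against 0.107% of all genes (14). Gbp2 (0.99 ± 0.41, higher at 3 of 3 time points, edgeR adjusted p = 0.398), Gbp3 (0.81 ± 0.29, higher at 2 of 3, edgeR adjusted p = 0.350) and Gbp7 (0.66 ± 0.26, higher at 3 of 3, edgeR adjusted p = 0.391) had unadjusted p under 0.05, as did 1548 of all genes, and DESeq2 called 0 of the 10 and 140 genes. Iigp1 had the largest fitted change, 2.21 ± 0.98 (edgeR adjusted p = 0.430, higher at 3 of 3), and Irgm1 was the gene below 0 (-0.54 ± 0.42). The median of the 10 was 0.79, against -0.01 over all genes. Without the G12D T3 library it was 0.07 with 8 changes above 0, and without both unusual T3 libraries 0.24, so the size of the difference rested on that library. Markers of other cells, summed over all cells of G12D T3, were at 377 CPM for 9 T/NK markers (234 to 419 in WT). Macrophage markers were at 77.2 CPM (78.1 to 108 in WT) and dendritic cell markers at 28.7 CPM (8.30 to 19.8), with Klk1 at 0. Nkg7, 1 of the T/NK markers, also led WT clusters of granulocyte-monocyte progenitor-like cells, so that sum does not track T/NK cells alone. Cells classed as T/NK-like (below) numbered 17 of 2551 in G12D T3. In WT they numbered 10 of 2350, 9 of 2844 and 3 of 2389. Whether other cells contributed was not tested. With lymphoid, dendritic and macrophage-like cells left out, Iigp1 had 2.23 ± 1.02 and Gbp3 0.84 ± 0.28.

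In G12D/E2-KO against WT, 0 of the 10 were called, against 5.71% of all genes (750). None had an unadjusted p under 0.05 (3457 of all genes did), DESeq2 called 0 (and 1291 genes), and the median was 0.43 against 0.01 over all genes. Irgm2 had 1.05 ± 0.53 (edgeR adjusted p = 0.240) and Igtp 0.82 ± 0.51 (edgeR adjusted p = 0.346), both higher at 3 of 3 time points. At T3 Igtp was at 5.57 CPM against 5.12 in WT, and 1 megakaryocyte-like cell held 22 of the 86 Igtp UMIs of G12D/E2-KO T3. The direction of Igtp at T3 therefore rested on that cell. Without G12D/E2-KO T3, Irgm2 had 1.61 and was called (edgeR adjusted p = 0.0223), in a fit that called 10.5% of all genes. Without both unusual T3 libraries Irgm2 (1.46 ± 0.26, edgeR adjusted p = 0.00966) and Igtp (1.09 ± 0.20, edgeR adjusted p = 0.0102) were both called, against 9.06% of all genes (1179 of 13009) in that setting. Both settings leave out the G12D/E2-KO library with the lowest Irgm2 and Igtp, so these calls are no support for a difference. Beside this, 2 of 8 tested T/NK markers were called higher and 3 of 9 macrophage markers lower in G12D/E2-KO than in WT (summed ranges 286 to 432 against 234 to 419 CPM, and 56.9 to 88.6 against 78.1 to 108 CPM), and with lymphoid, dendritic and macrophage-like cells left out Irgm2 had 0.99 ± 0.53 and Igtp 0.82 ± 0.52.

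**Figure D2:**
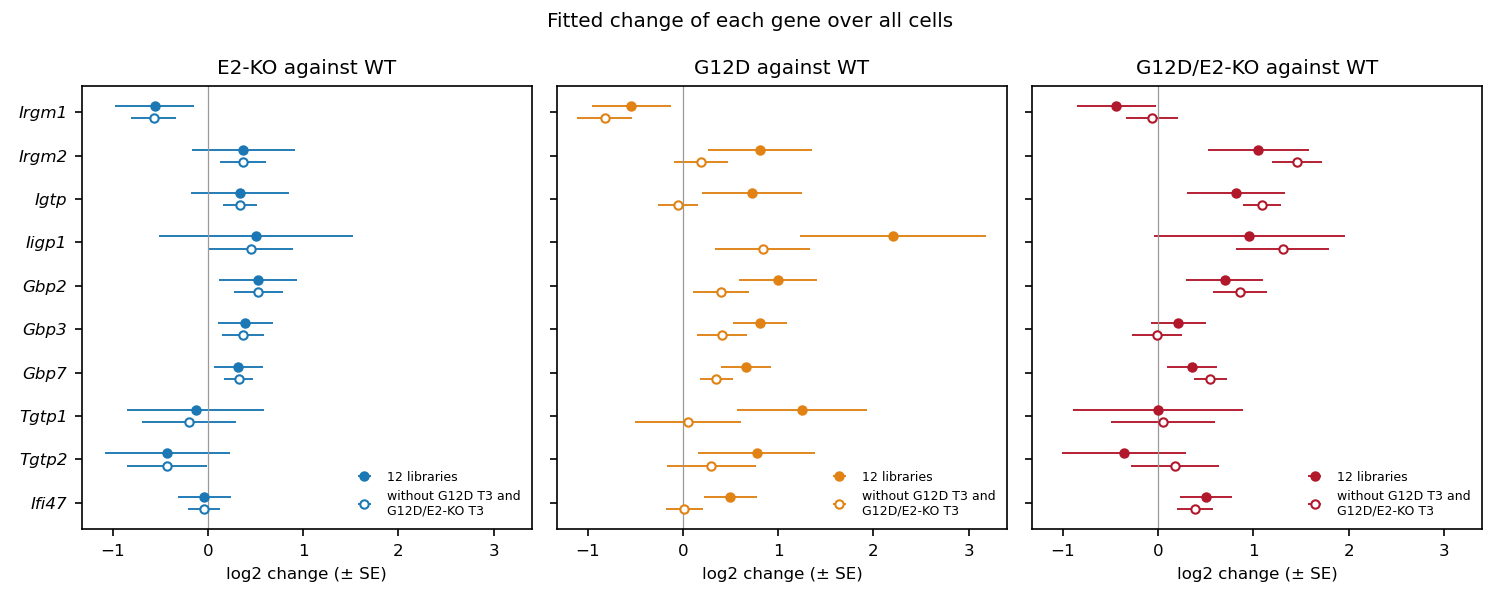
Fitted log2 change against WT with its standard error for each gene (y axis), by mutant genotype (panels), from all 12 libraries (filled) and without G12D T3 and G12D/E2-KO T3 (open). In G12D the open points lie nearer 0 than the filled ones for 9 of the 10 genes, and in G12D/E2-KO those of Irgm2 and Igtp lie farther from 0, at 1.46 and 1.09.

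Deletion of Ezh2 was also compared within the NRas G12D background, and NRas G12D within the Ezh2-deleted background. In G12D/E2-KO against G12D, 0 of the 10 were called, against 1.42% of all genes (186; at an unadjusted p under 0.05, 0 of the 10 and 1959 genes; DESeq2, 0 and 354), with a median of -0.30. That direction rested on G12D T3, since the median was 0.25 without that library and 0.42 without both T3 libraries. In G12D/E2-KO against E2-KO 0 were called, against 0.0913% of all genes (12; unadjusted, 0 and 2515; DESeq2, 0 and 670), with a median of 0.15 (0.47 without both T3 libraries). Without the 2 unusual T3 libraries, Igtp (1.14, edgeR adjusted p = 0.0232) and Irgm2 (1.27, edgeR adjusted p = 0.0460) passed against G12D, where 1.87% of all genes did (243). Irgm2 (1.08, edgeR adjusted p = 0.0465) passed against E2-KO, where 3.37% did (438). That setting leaves out the G12D library with the highest Igtp and Irgm2 and the G12D/E2-KO library with the lowest. The selection itself raises these changes, so the calls are no support for a difference.

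The interaction of the alleles, whether Ezh2 deletion acted differently with and without NRas G12D, called 0 of the 10, against 0.0913% of all genes (12; DESeq2, 0 of the 10 and 55 genes). Gbp3 alone had an unadjusted p under 0.05 (490 genes did), with -0.99 ± 0.40 (edgeR adjusted p = 1), and -0.63 ± 0.39 without G12D T3. It was higher in E2-KO than in WT and lower in G12D/E2-KO than in G12D at 3 of 3 time points each. Time itself called 0 of the 10 in T2 against T1 and in T3 against T1, where edgeR called 0% of all genes in either. At an unadjusted p under 0.05 there were 0 of the 10 in both (621 and 1708 genes), and DESeq2 called 0 of the 10 in both (4 and 21 genes). Ifi47 had 0.44 ± 0.24 at T3 against T1 (edgeR adjusted p = 0.433), a value that rested on G12D T3, being 0.0975 without it and -0.0275 without both T3 libraries.

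The genes most like the GTPases in their levels across libraries were picked from the whole table. Of 7080 genes with a mean of at least 10 CPM, the 8 whose levels were most like the sum of the 10 (Pearson r of log2 values over 12 libraries, without a test) were Dtx3l (0.94), Trafd1 (0.91), Trim12c (0.89), Trim30a (0.88), Nampt (0.87), Bst2 (0.87), Irf1 (0.85) and Tor1aip1 (0.85). Without G12D T3 these values were 0.90, 0.86, 0.79, 0.80, 0.70, 0.62, 0.61 and 0.94. Dtx3l encodes an E3 ubiquitin ligase, Bst2 the membrane protein tetherin that holds back budding viruses, and Irf1 the transcription factor named above. Irf1 was at 8.20 to 14.4 CPM in the other 11 libraries and at 17.6 CPM in G12D T3. Dtx3l was at 17.7 to 29.4 CPM and 42.3 CPM. In G12D/E2-KO T3, Isg15 (2.20 CPM), Irf7 (0.972), Ifit1 (0.842) and Usp18 (1.04) were the lowest of the 12 libraries, as were Iigp1 (0.389) and Tgtp2 (0.130), while Ifi47 was at 36.3 CPM against 17.1 to 24.0 in WT.

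Further interferon genes were taken from 4 lists. Of 17 other IRG and GBP family genes, 14 had a column and 7 were tested, of 19 genes for interferons, receptors and signalling 17 were tested, of 20 type I interferon response genes 19, and of 18 interferon-gamma response and antigen presentation genes 17. In edgeR's test, 0 genes of any list were called in any of the 8 contrasts. In G12D against WT the unadjusted p was under 0.05 for 2, 4, 1 and 1 genes of the 4 lists, beside 11.8% of all genes, and the medians were 1.53, 0.36, 0.93 and 0.40; in G12D/E2-KO against WT it was under 0.05 for 1, 2, 0 and 1, beside 26.3% of all genes, and the medians were 0.60, 0.22, 0.59 and 0.27. Without the 2 unusual T3 libraries, where 9.06% of all genes were called, G12D/E2-KO against WT called Gbp9 of the first list, genes of the second that included Usp18 and Irf9, 11 genes of the third (among them Ifih1, Zbp1, Oasl2 and Oas1a, sensors or effectors against viral nucleic acid) and Tap1, a peptide transporter for antigen presentation, of the fourth. Tap1 was also called in that setting in E2-KO against WT (464 of 13009 genes called). G12D/E2-KO against G12D (243 of 13009) called Tap1, Usp18 and genes of the third list that included Zbp1, Rtp4 and Ifit1. G12D/E2-KO against E2-KO (438 of 13009) called 9930111J21Rik2, Usp18 and Ciita, and Zbp1, Ddx58, Rtp4 and Ifit1 of the third list. T2 against T1 (2 of 13009) called Ifit1. The 2 libraries were picked for genes of this programme, so these calls are no support for a difference. Of the ligand genes only Ifng and Ifnb1 were looked up, with 2 and 0 UMIs in all libraries.

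Cell classes were rebuilt from the counts, since cell annotations were not used here. WT cells were clustered without the GTPases and interferon genes, clusters were named from marker lists, and mutant cells took the class of their nearest WT cells. The names are rebuilt and can differ from those of the study. Of 35 WT clusters 33 were named, giving 13 classes, of which 7 had at least 20 cells in every library and were tested. They were stem and multipotent progenitor-like (HSC/MPP), megakaryocyte-erythroid progenitor-like (MEP), erythroid progenitor and early erythroid-like (EryP/early Ery), late erythroid-like (late Ery), granulocyte-monocyte progenitor and early granulocyte-like (GMP/early GN), late granulocyte-like (late GN) and promonocyte-like (ProMo) cells.

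Among the 7 tested classes, the GTPase genes had their highest CPM in HSC/MPP-like cells. Their sum was 205 ± 70.5 CPM (mean ± SD over 12 libraries) in HSC/MPP-like cells, 152 ± 54.6 in MEP-like, 101 ± 23.0 in ProMo-like, 94.3 ± 23.7 in GMP/early GN-like, 92.5 ± 56.3 in late Ery-like, 81.1 ± 43.1 in EryP/early Ery-like and 36.8 ± 19.8 CPM in late GN-like cells. Among these classes HSC/MPP-like cells ranked first for 8 of the 10 genes, all except Gbp3 and Tgtp1. Smaller classes, with few cells in some libraries, had levels in the same range. In T/NK lymphoid-like cells (105 UMIs in all) the sum had a median of 179 CPM over the libraries, against 195 in HSC/MPP-like cells, and its mean of 280 ± 349 rested on G12D T2, with 1318 CPM from 13 UMIs in 3 cells. The sum was 163 ± 45.1 in basophil and mast-like and 150 ± 47.8 in megakaryocyte-like cells. Ifi47 was at 80.4 ± 30.5 CPM in basophil and mast-like cells (253 UMIs) and 60.5 ± 21.3 in megakaryocyte-like cells (175 UMIs), against 44.6 ± 12.5 in HSC/MPP-like cells. The SDs hold genotype and time as well as sampling. CPM is a share of the UMIs of a class, and cells of different classes held different totals. In WT T1 the median was 3829 UMIs in HSC/MPP-like and 13151 in EryP/early Ery-like cells. Without thinning, 59.9% and 58.2% of these cells had a UMI of any of the 10 genes. In WT T2 this held for 55.7% of HSC/MPP-like and 73.7% of ProMo-like cells. UMIs per cell therefore need not follow the order of CPM.

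**Figure D3:**
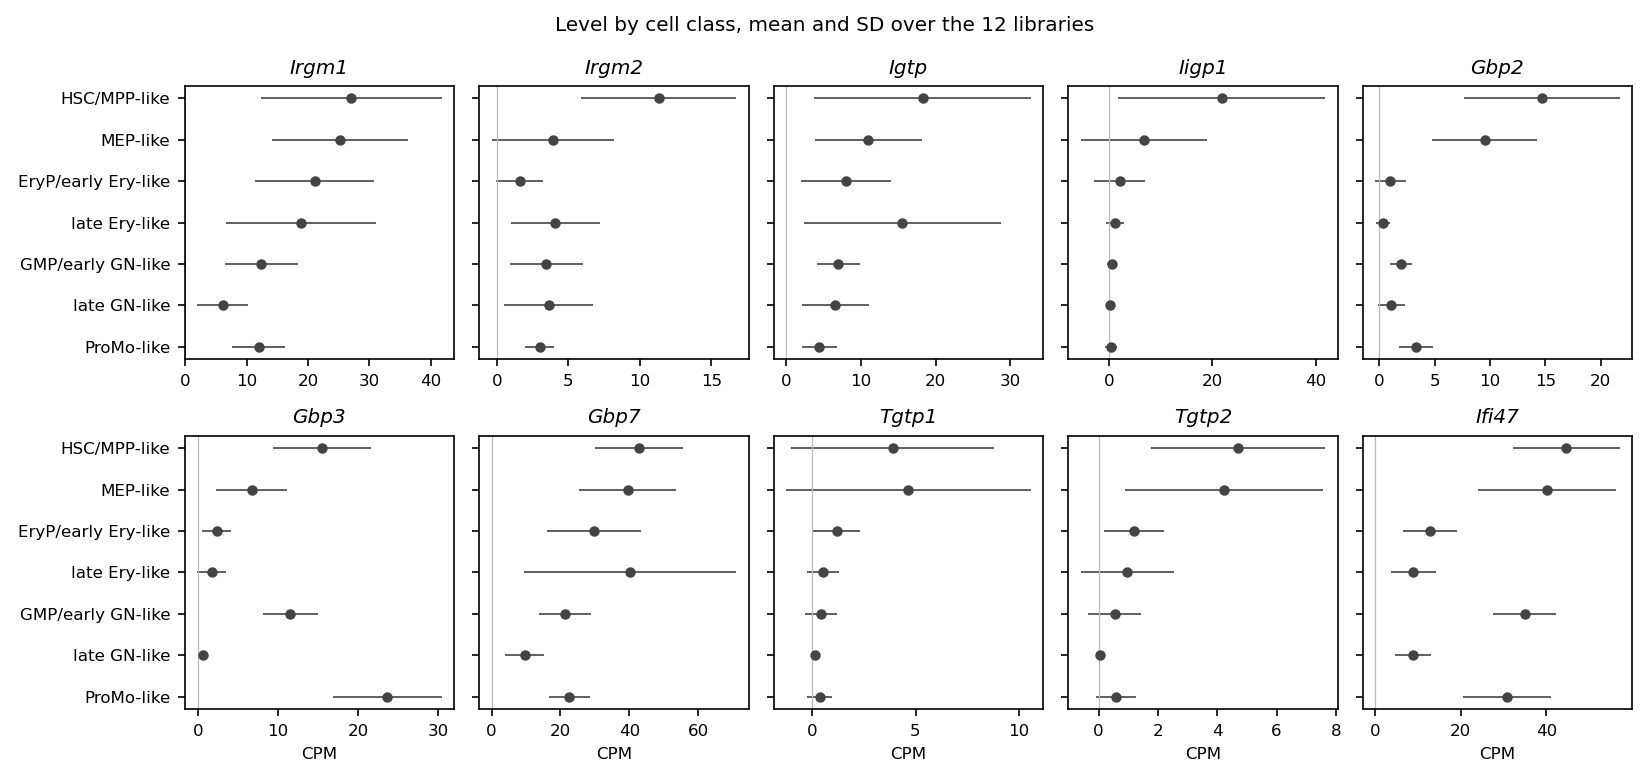
Mean CPM of each gene in the 7 tested cell classes, with the SD over the 12 libraries (bars). HSC/MPP-like cells have the highest mean in 8 of the 10 panels, Gbp3 is highest in ProMo-like cells at 23.6 CPM, and Tgtp1 in MEP-like cells at 4.66 CPM.

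Most neighbours in these orders did not differ beyond their spread. Iigp1 was at 21.8 ± 20.0 CPM in HSC/MPP-like cells, 6.79 ± 12.2 in MEP-like and 2.14 ± 4.92 in EryP/early Ery-like cells, and between 0.189 and 1.2 in the other 4 classes. These values turn on G12D T3: without it they were 16.8 ± 10.2, 3.49 ± 4.53 and 0.725 ± 0.554 CPM, and only then was the gap between HSC/MPP-like and MEP-like cells larger than either SD. HSC/MPP-like cells were its highest class in 11 of 12 libraries. Irgm2 was at 11.3 ± 5.41 CPM in HSC/MPP-like cells and 4.10 ± 3.09 in late Ery-like cells, the next class, a gap larger than either SD. Irgm1 was spread from 27.1 ± 14.7 CPM in HSC/MPP-like to 6.12 ± 4.19 in late GN-like cells, and no neighbours before ProMo-like (12.0 ± 4.30) and late GN-like cells differed by more than the larger SD.

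Gbp3 was highest of the 7 tested classes in ProMo-like cells. It was at 23.6 ± 6.82 CPM there, the highest tested class in 9 of 12 libraries, at 21.8 ± 4.73 in the cells left unnamed (354 UMIs), at 15.5 ± 6.18 in HSC/MPP-like, 11.5 ± 3.46 in GMP/early GN-like and 6.71 ± 4.45 in MEP-like cells, and at 0.582 ± 0.488 CPM in late GN-like cells. ProMo-like cells stood above HSC/MPP-like cells, and GMP/early GN-like above MEP-like cells, by more than the larger SD. Gbp2 was at 14.7 ± 7.05 CPM in HSC/MPP-like and 9.52 ± 4.74 in MEP-like cells and at 3.32 ± 1.52 CPM or less in the other 5 tested classes. Gbp7 (42.9 ± 12.8 CPM in HSC/MPP-like cells, 40.3 ± 30.8 in late Ery-like, 39.5 ± 14.1 in MEP-like, 29.8 ± 13.6 in EryP/early Ery-like) was lowest in late GN-like cells (9.67 ± 5.67).

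The high level of G12D T3 was not limited to 1 class. The sum of the 10 genes in that library was the highest of the 12 in 6 of 7 classes, at 407 CPM in HSC/MPP-like cells (121 to 227 in the other 11 libraries) and 235 CPM in late Ery-like cells (26.0 to 141). In late GN-like cells G12D T3 was at 68.7 CPM and G12D/E2-KO T2 at 75.6 CPM. Cells with at least 1 UMI of any of the 10 genes, after thinning each cell to 1400 UMIs, made up 18.2% of G12D T3 (49.9% without thinning) and 8.24% to 12.9% of the other libraries (28.8% to 43.1%), with 2.48% (WT T2) to 9.56% (G12D/E2-KO T2) in late GN-like cells and 14% (G12D/E2-KO T3) to 38.4% (G12D T3) in HSC/MPP-like cells. Median depths there were 3930 UMIs per cell in late GN-like and 5543 in HSC/MPP-like cells of G12D T3. Iigp1 had a UMI in 39 of 119 HSC/MPP-like cells of G12D T3 and in 3 of 1018 late GN-like cells of the same library.

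Within classes, 38 of the 70 combinations of gene and class passed the filter on low counts, and these were tested against WT with the same model. In E2-KO 0 of the 38 were called, against 1.59% of all 59060 gene and class pairs. By edgeR 3 of them had an unadjusted p under 0.05, as did 13.3% of all pairs, and no test by DESeq2 was run within classes. In G12D 1 was called, against 0.154%, and 11 had an unadjusted p under 0.05, against 5.14% of all pairs. In G12D/E2-KO 1 was called, against 2.67%, and 9 had an unadjusted p under 0.05, against 16.7%. That 1 of 38 was near the share over all pairs, so the count does not set these genes apart.

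Irgm1 in HSC/MPP-like cells, the 1 pair called for G12D/E2-KO, was lower in G12D/E2-KO than in WT. It was at 45.5, 39.8 and 47.9 CPM in WT at T1, T2 and T3 (27, 28 and 33 UMIs), 26.3, 20.8 and 28.8 in E2-KO, 18.9, 31.0 and 40.7 in G12D, and 13.3, 12.4 and 0 CPM in G12D/E2-KO (14, 13 and 0 UMIs in 191, 283 and 86 cells). The 0 at T3 allows up to 9.54 CPM. The 3 WT and 3 G12D/E2-KO libraries did not overlap, nor did WT and E2-KO, while the highest G12D library lay among WT. How often libraries did not overlap over all gene and class pairs was not counted. Such statements, here and for the pairs below, therefore describe the libraries and carry no test. The fitted change was -1.87 ± 0.38 in G12D/E2-KO (edgeR adjusted p = 0.0118), with the lower value at each of 3 time points, -0.74 in E2-KO (edgeR adjusted p = 0.576) and -0.51 in G12D (edgeR adjusted p = 0.903). Over 18 alternatives the change ranged from -2.19 to -1.41 and was called in 14. It lost the call without WT T1 (edgeR adjusted p = 0.114), WT T2 (0.0760), WT T3 (0.0706) or G12D/E2-KO T2 (0.0501), and was still called without both unusual T3 libraries (-1.58, edgeR adjusted p = 0.0218).

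The lower Irgm1 of G12D/E2-KO was not seen in every class. In late Ery-like cells Irgm1 was at 27.0, 24.0 and 34.2 CPM in WT and 23.6, 5.85 and 0 in G12D/E2-KO (-0.92 ± 0.42, edgeR adjusted p = 0.321), and at 11.6, 11 and 14 in E2-KO (-0.99 ± 0.36, edgeR adjusted p = 0.206), again below all 3 WT libraries. In late GN-like cells it was at 4.92, 4.17 and 4.16 CPM in WT and at 10.1, 15.8 and 2.23 CPM in G12D/E2-KO, where the fitted change was above 0 (1.04) and was called without the 2 unusual T3 libraries (1.56 ± 0.35, edgeR adjusted p = 0.0116). The difference between classes was not tested.

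Gbp7 in late Ery-like cells was higher in G12D than in WT. It was at 31.1, 9.73 and 20.3 CPM in WT, 36.3, 37.6 and 13.5 in E2-KO, 81.0, 52.4 and 113 in G12D, and 52.0, 21.9 and 14.4 in G12D/E2-KO. All 3 G12D libraries were above the 3 of WT, the T1 and T2 libraries too. The fitted change was 1.96 ± 0.34 in G12D (edgeR adjusted p = 0.0157, higher at 3 of 3 time points), 0.83 in E2-KO (edgeR adjusted p = 0.288), and for G12D/E2-KO it was 0.87 (edgeR adjusted p = 0.307). Over 18 alternatives it ranged from 1.56 to 2.19 and was called in 11. It lost the call with cells as deposited (edgeR adjusted p = 0.153), without time point in the model (0.0531), with classes from marker scores (0.0502), and without WT T1 (0.0809), WT T2 (0.152), WT T3 (0.0659) or G12D T3 (0.116). Without both unusual T3 libraries it was 1.58 (edgeR adjusted p = 0.0393).

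**Figure D4:**
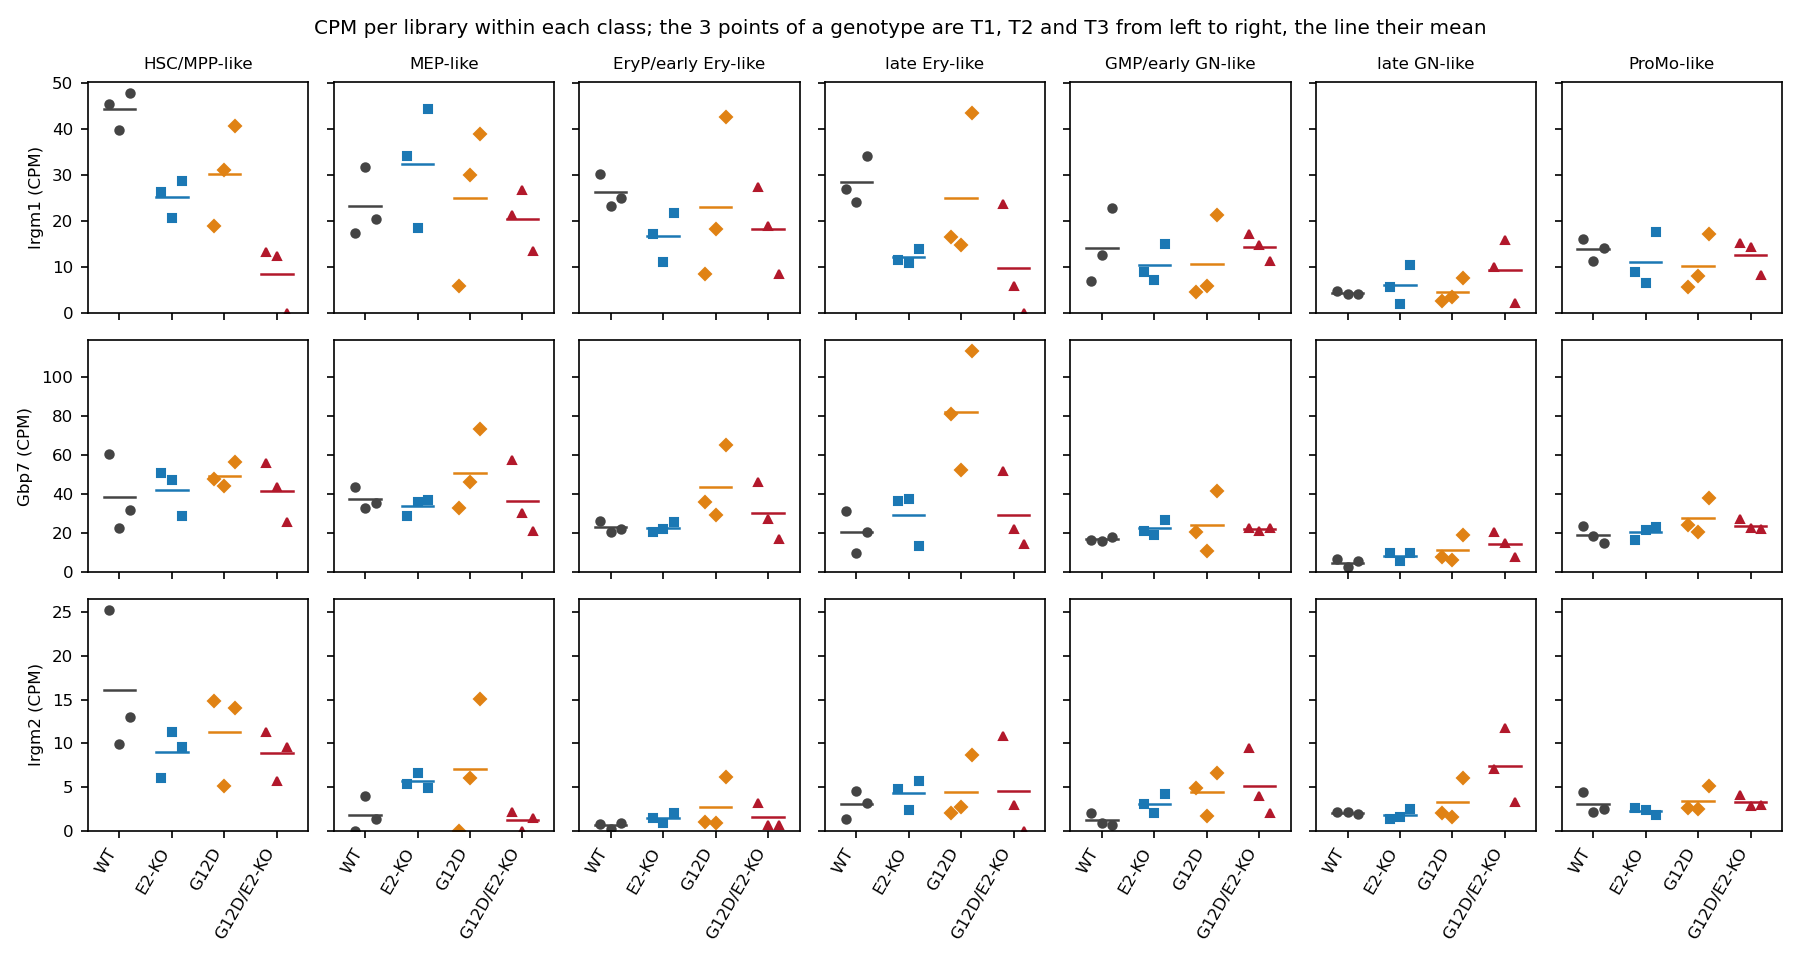
CPM of Irgm1 (top), Gbp7 (middle) and Irgm2 (bottom) in each library within the 7 cell classes (columns), with T1, T2 and T3 from left to right for each genotype and the mean as a line. In HSC/MPP-like cells the 3 G12D/E2-KO points of Irgm1 (0 to 13.3 CPM) lie below the 3 WT points (39.8 to 47.9 CPM), and in late Ery-like cells the 3 G12D points of Gbp7 (52.4 to 113 CPM) lie above those of WT (9.73 to 31.1 CPM).

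In late granulocyte-like cells, where the sum of the genes was lowest of the tested classes, G12D T3 and the G12D/E2-KO libraries of T1 and T2 stood out. The sum was 28.4, 20.0 and 20.2 CPM in WT, 35.7, 25.8 and 35.9 in E2-KO, 23.5, 21.1 and 68.7 in G12D, and 59.8, 75.6 and 27.3 CPM in G12D/E2-KO. Irgm2 there was at 2.19, 2.18 and 1.87 CPM in WT and 7.07, 11.7 and 3.35 in G12D/E2-KO, all above WT (1.72 ± 0.50, edgeR adjusted p = 0.0592). Gbp7 was at 6.84, 2.36 and 5.41 CPM in WT and 20.7, 14.8 and 7.81 in G12D/E2-KO, also without overlap (1.55 ± 0.50, edgeR adjusted p = 0.116). Neither passed with all libraries, and both did in the setting without the 2 T3 libraries, chosen for interferon genes (Irgm2 2.02, edgeR adjusted p = 0.00179; Gbp7 1.91, edgeR adjusted p = 0.000163).

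In that setting 8 of the pairs were called in G12D/E2-KO against WT, beside 3.91% of all 58594 pairs: Irgm1, Irgm2, Igtp (1.2) and Gbp7 in late GN-like cells, Gbp7 (0.79) and Igtp (1.21) in EryP/early Ery-like cells, Irgm2 (2.55) in GMP/early GN-like cells and Irgm1 in HSC/MPP-like cells. Apart from Irgm1 in HSC/MPP-like cells, the fitted changes were above 0. Calls gained only in that setting are a description and no support for a difference.

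Other pairs fell short of the threshold in all 12 libraries. Iigp1 in HSC/MPP-like cells was at 8.42, 8.53 and 14.5 CPM in WT and 35.7, 15.5 and 77.2 in G12D (2.07 ± 0.58, edgeR adjusted p = 0.422), with all 3 G12D libraries above WT. In 1 HSC/MPP-like cell of G12D T1, 14 of the library's 57 Iigp1 UMIs were counted. Ifi47 in MEP-like cells was at 20.9, 35.6 and 38.3 CPM in WT and 42.6, 61.8 and 72.4 in G12D/E2-KO (0.96 ± 0.28, edgeR adjusted p = 0.0961), also above WT in all 3. In late Ery-like cells Ifi47 was at 16.2, 8.59 and 12.8 CPM in WT and 4.79, 4.70 and 3.12 in E2-KO (-1.31 ± 0.44, edgeR adjusted p = 0.135), below WT in all 3.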

How the data were processed

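Single-cell RNA sequencing was done on 12 libraries (3 time points in each of 4 genotypes). The authors deposited 1 table of UMI counts per library, made with Cell Ranger on mm10, with cells over 10% mitochondrial reads and doublets called by Scrublet removed. No normalization had been applied, and 0 columns were left unmapped. Matched cells of the G12D T1 and G12D/E2-KO T1 tables (cosine similarity of square-root counts over 0.9) were kept once. WT cells were clustered with scanpy 1.11.5 and leidenalg 0.10.2 on 1974 variable genes, and other cells took the class of their nearest WT neighbours. A score of the marker lists gave the same class for 84.8% of cells.

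Counts were summed per library, and per library and class (at least 20 cells in every library). They were tested with edgeR 4.0.16 in R 4.3.3 (TMM factors 0.939 to 1.15, filterByExpr, robust quasi-likelihood fit of genotype plus time point over all 12 libraries, 6 residual degrees of freedom, Benjamini-Hochberg over the genes tested, threshold 0.05), with a biological coefficient of variation of 0.190. The edgeR fit over all cells was tried on simulated counts with changes set in G12D only, and the other steps were not. DESeq2 1.42.0, other scaling, filters, cell sets, models and each library left out were alternatives. CPM intervals are exact Poisson 95% intervals, limits for a count of 0 use 3 UMIs, and both cover counting error only.

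Libraries at the same time point deviated together only in part (median r = 0.188 over 18 pairs, 11 of them over 0.1, against -0.116 for libraries of different times). Deviations were taken from genotype means and sum to 0 within a genotype. The value for different times thus depends on that for the same time and is no independent comparison. Within a time point the highest r, 0.497, was of G12D T1 with G12D/E2-KO T1, the tables that shared cells. The highest of all pairs, 0.522, was of WT T2 with E2-KO T1, libraries of different times.

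All 10 members are named. List genes are named where called, at most 4 per list and direction, and the 8 genes most like the members by Pearson r among those of at least 10 CPM. Isg15, Irf1, Irf7, Ifit1 and Usp18 levels, and genes called only without 2 libraries, were named after their values were seen. Members and lists were chosen with earlier results of these data known. Some values are not reported here.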

Additional observations from a re-analysis of the deposited data

Results flagged for a closer look

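At each time point, and for each gene over all cells, the highest or lowest of the 4 genotypes was compared with the other 3 by the size of its gap (Dixon's criterion at the 95% level). Of these 30 groups 6 passed. Chance passes about 1 in 20 independent groups, but these groups hold the same 4 libraries for every gene and so are not independent, and the count is no test. Irgm1 in HSC/MPP-like and Gbp7 in late Ery-like cells were looked at in the same way, and since they were chosen for genotype differences already called, they are left out of that count. With 1 library per genotype in a group, genotype and library cannot be told apart.

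At T1, G12D/E2-KO stood above the other genotypes for Irgm2 (6.42 CPM against 2.85 to 3.04) and Igtp (13.4 CPM against 6.59 to 7.16). At T2 it did so for Irgm2 (5.12 CPM against 1.76 to 2.32). At T3, G12D stood above the others for Igtp (17.5 CPM against 5.12 to 6.73), Iigp1 (11.6 CPM against 0.389 to 1.18) and Tgtp1 (3.38 CPM against 0.317 to 0.563). The library G12D T3 accounted for 3 of the 6. Gbp7 in late Ery-like cells at T3, one of the chosen groups, was at 113 CPM in G12D against 13.5 to 20.3. The gaps of Irgm2 and Igtp at T1 fall on the table that shared cells with G12D T1.

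Gbp3 had values of opposite sign for Ezh2 deletion, and neither passed the test (edgeR adjusted p = 0.521 for E2-KO against WT and 0.357 for G12D/E2-KO against G12D). The mean log2 ratio of CPM plus 1 was 0.37 for E2-KO to WT, higher at 3 of 3 time points, and -0.41 for G12D/E2-KO to G12D, lower at 3 of 3. The edgeR test of that difference itself gave an unadjusted p of 0.0329 and an adjusted p of 1, and without G12D T3 the fitted difference went from -0.99 to -0.63.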

How the results depend on the processing

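Of 227 recomputed counts of calls, 201 equalled the reported count or stayed within 1.5 times of it. Most reported counts were 0, so this mainly shows that 0 calls stayed 0. Of 1130 recomputed single values 1069 kept their direction and side of the threshold. Over all cells, G12D/E2-KO gave calls without G12D T3 and G12D/E2-KO T3, a setting chosen after the data were seen (2 against WT, 2 against G12D, 1 against E2-KO), and 0 to 1 against WT over single libraries left out, the 1 without G12D/E2-KO T3. Within classes, without the low-count filter there were 1 (E2-KO), 7 (G12D) and 7 (G12D/E2-KO) calls, and with marker scores 1, 0 and 2. Cells as deposited gave 0 in G12D, the fit without the replicate block (time point) 0 in G12D, and the setting without both T3 libraries 8 in G12D/E2-KO. Leaving out single libraries gave 0 to 2 in G12D and 0 to 7 in G12D/E2-KO, the 7 without G12D/E2-KO T3. The block changed no other count of calls by over 1.5 times.

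The median of the 10 genes in G12D/E2-KO against G12D turned from -0.30 to 0.25 without G12D T3 and to 0.42 without both T3 libraries, that of the interaction from -0.67 to 0.05 (0.0495) and 0.25, and that of T3 against T1 from 0.02 (0.0238) to -0.61 and -0.18. Beyond medians, the signs that turned were of single genes whose reported change was not called. Tgtp1 in G12D/E2-KO against WT (-0.00) became 0.01 with DESeq2 size factors (0.0053), the DESeq2 Wald test (0.0118) and haemoglobin and late granulocyte genes left out (0.0075), 0.22 without both T1 libraries that share cells, and 0.0494 without both T3 libraries, and ranged from -0.34 to 0.56 over single libraries left out. Without both T3 libraries Igtp in G12D became -0.0485, Gbp3 in G12D/E2-KO -0.0135, Tgtp2 in G12D/E2-KO 0.18 and Ifi47 at T3 against T1 -0.0275. Ifi47 in E2-KO became 0.01 (0.0082) without lymphoid, dendritic and macrophage-like cells. Over single libraries left out, E2-KO against WT ranged from -0.0716 to 0.91 for Iigp1, -0.52 to 0.44 for Tgtp1 and -0.31 to 0.22 for Ifi47, Igtp in G12D from -0.19 to 1.16 and Tgtp2 in G12D/E2-KO from -1.29 to 0.32. The causes were not tested. Tgtp1 and Tgtp2 had the fewest UMIs of the 10 genes, 198 and 208 over 12 libraries.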

Other observations

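Classes with fewer than 20 cells in some library were not tested, and their values are counts of few cells. In B lymphoid-like cells the 10 genes summed to 129 CPM over all libraries pooled, and single libraries ranged from 44.3 CPM (G12D T1, 33 cells) to 328 CPM (G12D T3, 43 cells), and G12D/E2-KO T3 had 0 such cells. In megakaryocyte-like cells single cells carried much of the Igtp count: 1 cell of G12D/E2-KO T2 held 21 of the library's 221 Igtp UMIs, and 1 of G12D/E2-KO T3 held 22 of 86. No other library had a cell with more than 9 Igtp UMIs. In late GN-like cells, Igtp was at 10.7, 15.8 and 1.67 CPM in G12D/E2-KO and 6.29, 3.99 and 3.54 CPM in WT.

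Among type I interferon response genes with at least 100 UMIs, 13 of 19 were highest in G12D T3, with a median ratio of 2.82 to the mean of the other libraries. The same held for 4 of 5 other IRG and GBP family genes (2.62), 5 of 17 signalling genes (1.44) and 12 of 16 interferon-gamma response genes (1.60). Usp18, which removes ISG15 from proteins and dampens type I interferon signalling, was at 16.0 CPM in G12D T3, 15.4 (T1), 6.63 (T2) and 1.04 CPM (T3) in the G12D/E2-KO libraries, and 1.54 to 5.76 CPM in the other 8 libraries.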
